A study of Mus musculus with 12 samples.

Results

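Krüppel-like factors are DNA-binding proteins that share zinc fingers at the carboxyl end and bind GC-rich sites and CACCC boxes, while their amino-terminal parts recruit coactivators or corepressors. The 10 genes Klf2, Klf3, Klf4, Klf5, Klf6, Klf7, Klf9, Klf10, Klf13 and Klf15 were taken by name from the 19938 genes of the expression table, and all 10 were found, each with 1 probe set. In endothelium the family is known for Klf2 and Klf4, which blood flow induces and which keep vessels quiescent. In embryonic stem cells it is known for Klf2, Klf4 and Klf5, which sustain self-renewal, and Klf4 is one of the factors used to reprogram somatic cells.

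RNA was measured on 12 mouse arrays, 3 in each group. The WT_EC group held lung endothelial cells of C57Bl/6 wild-type mice, and null_EC held such cells from mice without CD47, the cell surface receptor for thrombospondin-1 and SIRP alpha. Both were grown in the endothelial medium EGM2. The null_EB group held embryoid bodies, free-floating aggregates, which CD47 null endothelial cells passaged for 6 months formed in basal medium without serum within 24 to 36 h. ESC was V6.5, a single established mouse embryonic stem cell line, kept in 15% serum with LIF at 1000 IU/ml. The study asked, by its title, how CD47 bears on self-renewal and on c-Myc and its fellow regulators of stemness. Medium and growth form changed together with cell type, as did the 6 months of passage named for null_EB. ESC was also not labelled CD47 null, unlike null_EC and null_EB. The parts of these in a difference cannot be told apart. The labels do not say whether the arrays of a group came from separate animals or cultures, so p-values measure only the spread between these samples, which may be technical.

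Before the Klf genes, the arrays themselves were compared. The targeted gene Cd47 had a log2 signal of 12.59, 11.29 and 12.48 on WT_EC arrays 1 to 3, of 10.89 to 11.11 over the 6 CD47 null arrays and of 10.96 to 11.33 in ESC. The array labelled WT_EC 2 therefore lay nearer to the null arrays than to the other WT_EC arrays. Whether the probe set lies in the deleted part of the gene is not given in the sources used here. Across genes, the array labelled WT_EC 2 correlated with the null_EC arrays at 0.971 to 0.974 and with the other WT_EC arrays at 0.949 to 0.958, whereas arrays within each of the other groups correlated at 0.996 to 0.998. Calls of Klf genes that rest on WT_EC are therefore given with and without single WT_EC arrays where these change them, and for the lists of other genes the range of the number called in null_EC against WT_EC with 1 WT_EC array left out is given. These ranges, and counts of list genes from a fit without the WT_EC arrays, were added after the data were seen. The median level of 15 endothelial markers was 7.75, 6.97 and 8.13 on the WT_EC arrays and 7.23 to 7.27 in null_EC. Over all gene values the median was 8.01. Single markers differed widely on WT_EC arrays 1 to 3. Eng was 10.29, 7.59 and 10.61, Esam 10.34, 6.97 and 9.53, Flt1 10.05, 9.42 and 10.17 and Erg 6.70, 6.06 and 6.73. With all arrays in the fit Kdr was called higher and Flt1 lower in null_EC than in WT_EC, and 13 of the 15 were not called. Cdh5, VE-cadherin, was 9.10, 6.85 and 9.52 in WT_EC and 7.09 to 7.27 in null_EC, and Pecam1 was highest in ESC at 8.84 to 8.87. In WT_EC the median of 11 immune markers was 7.69, 6.72 and 10.07, against 6.75 to 6.98 in null_EC. That of 12 mesothelial and epithelial markers was 9.66, 9.11 and 11.18 in WT_EC, 10.07 to 10.13 in null_EC and 8.76 to 8.84 in null_EB, and that of 13 fibroblast and smooth muscle markers was 10.86 to 11.73, 10.32 to 11.13 and 10.04 to 10.37. Their part in the results was not tested, and in such bulk RNA fewer cells of a type and less RNA per cell cannot be told apart. All 10 pluripotent markers were higher in ESC than in each other group.

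Over the groups the 10 Klf genes had wider spans than the typical gene. They were chosen with earlier results of these data known, so this is a description and not a test. Their median SD in WT_EC was also larger than that of all genes, 0.393 against 0.213, and such spread can widen a span. The span between the highest and lowest group mean had a median of 1.02 log2 units over the 10 genes and 0.467 over all genes, and it reached 1 log2 unit for 5 of 10 (Klf4, Klf5, Klf6, Klf9 and Klf10) against 23.5% of all genes. Klf5 had the widest span, 1.87, and Klf13 the narrowest, 0.41. Below, differences are log2 differences of means, positive where the group named first was higher, each with its standard error (SE), and a gene is called where limma's adjusted p over all genes was below 0.05.

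**Figure D1:**
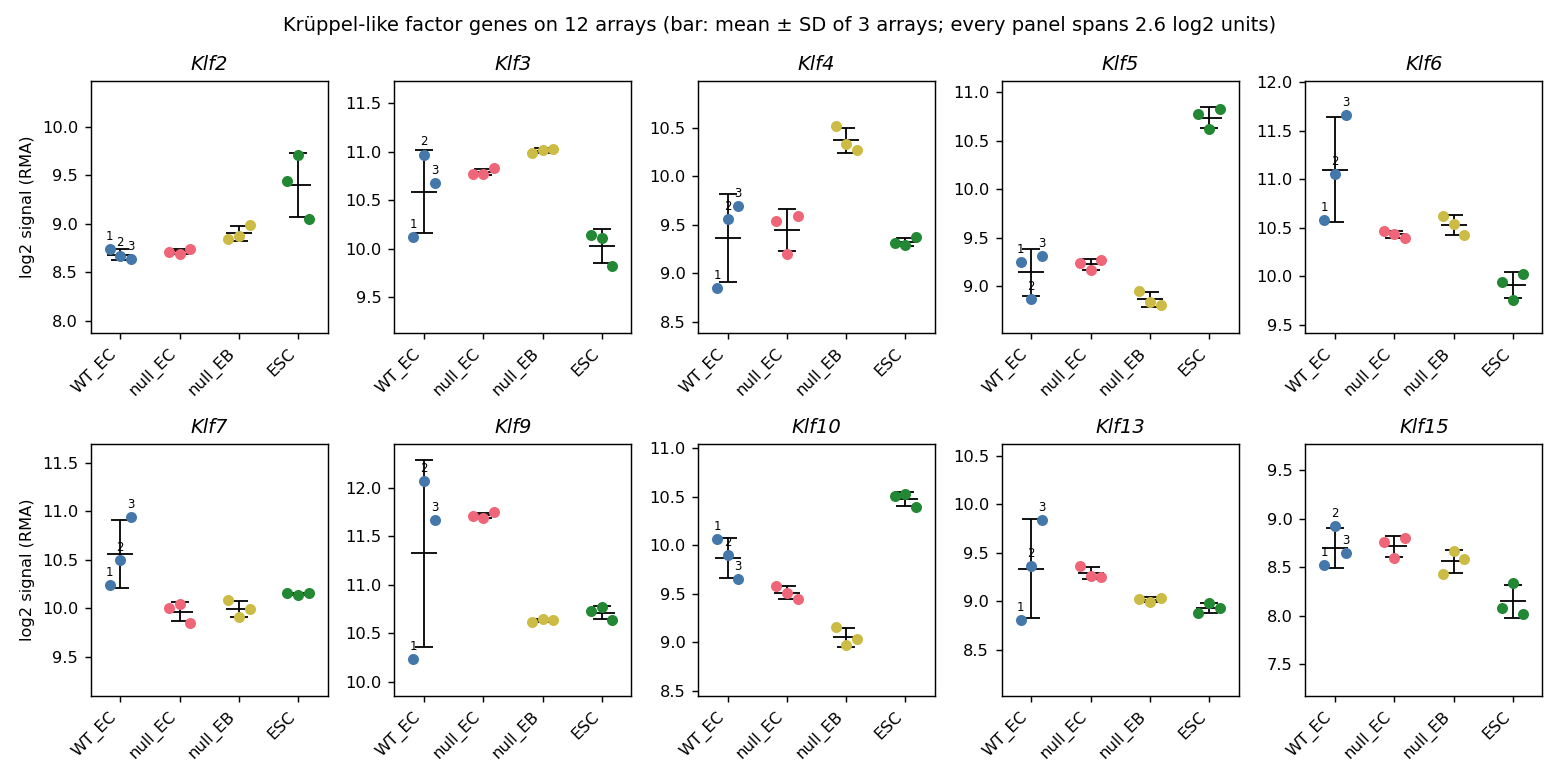
Log2 signal of the 10 Klf genes (y axis) on the 12 arrays by group (x axis), with points for arrays and bars for the mean ± SD of 3. Klf5 and Klf10 are highest in ESC and Klf4 in null_EB, and the WT_EC arrays spread more than the null_EC arrays for all 10 genes.

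With all arrays in the fit, fewer Klf genes, and fewer of all genes, were called among WT_EC, null_EC and null_EB than against ESC. In null_EC against WT_EC 0 rose and 2 fell, Klf7 and Klf10, where 13.1% of all genes were called (8.12% higher and 5.0% lower). The groups did not overlap for 3 of 10, against 25.5% of all genes. From null_EC to null_EB Klf4 rose and Klf10 fell, with 5.4% of all genes called (2.9% higher, 2.5% lower), and 7 of 10 did not overlap, against 41.1%. In a fit without the WT_EC arrays, whose wide spread otherwise enters the shared error, 5 of 10 were called there: Klf4 was higher and Klf5, Klf9, Klf10 and Klf13 lower, with 25.4% of all genes called (13.7% higher, 11.7% lower). Between null_EB and WT_EC Klf4 was higher and Klf7 and Klf10 lower, with 18.5% called (12.3% higher, 6.19% lower), and 5 of 10 did not overlap (28.3% of all genes).

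ESC differed from WT_EC with 3 Klf genes higher and 4 lower, where 47.1% of all genes were called (25.4% higher, 21.7% lower), and 6 of 10 did not overlap (51.5% of all genes). Against null_EC 3 were higher and 3 lower, with 47.9% of all genes called (22.9% higher, 25.1% lower), and 9 of 10 did not overlap (72.2%). Against null_EB 3 were higher and 4 lower, with 44.8% called (21.8% higher, 23.0% lower), and 9 of 10 did not overlap (67.4%). Without the WT_EC arrays 9 of 10 were called against null_EC, all but Klf4, with 66.8% of all genes called (29.4% higher, 37.4% lower), and 7 of 10 against null_EB, with 64.6% called (28.8% higher, 35.8% lower). With all arrays in the fit, Klf2, Klf5 and Klf10 were the 3 higher genes each time, in comparisons that share the ESC arrays. Without the WT_EC arrays Klf7 was also higher in ESC than in null_EC (0.19, adjusted p = 0.0259).

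**Figure D2:**
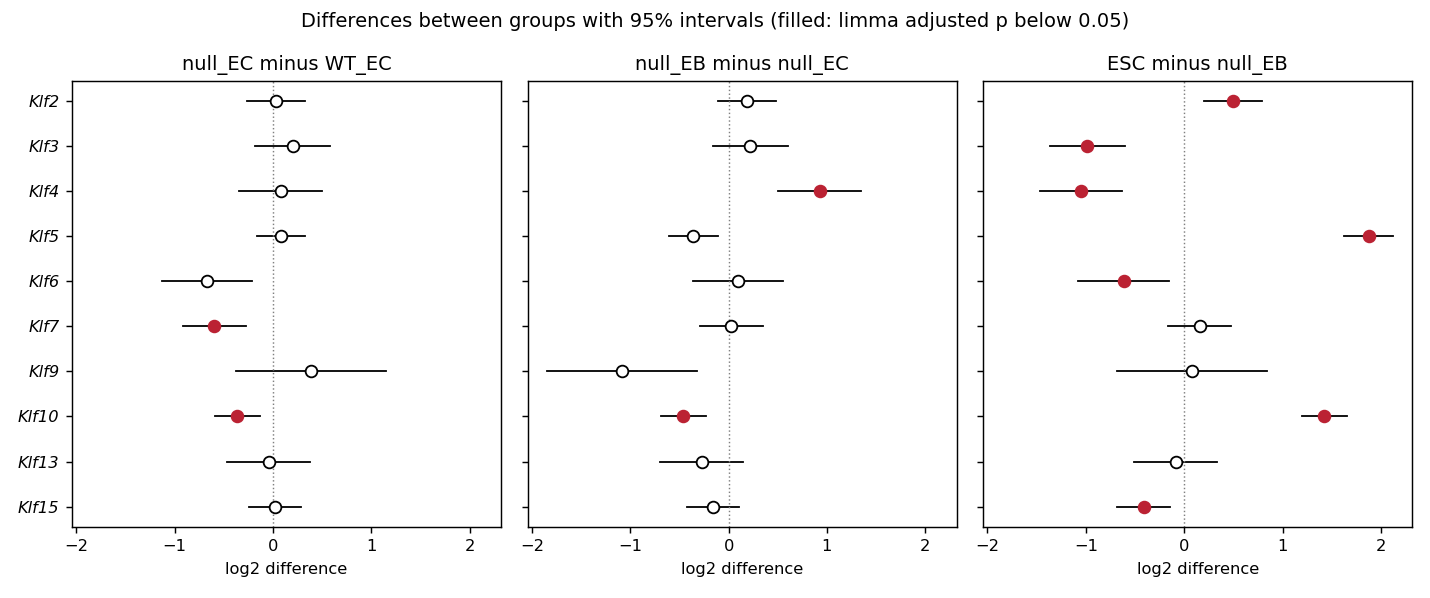
Log2 difference between groups (x axis) for the 10 Klf genes (y axis) in null_EC minus WT_EC, null_EB minus null_EC and ESC minus null_EB, with 95% intervals; filled points had a limma adjusted p below 0.05. Klf7 and Klf10 are called in the first panel, Klf4 and Klf10 in the second and 7 genes in the third.

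Klf2 and Klf4 were high in different groups, Klf2 in ESC and Klf4 in null_EB. Klf2 (chr8:72319062-72321654, GRCm38.p6), the flow-induced endothelial factor, measured 8.74, 8.67 and 8.63 in WT_EC, 8.71, 8.69 and 8.74 in null_EC, 8.84, 8.88 and 8.99 in null_EB and 9.44, 9.71 and 9.05 in ESC. All ESC arrays lay above all others, and WT_EC and null_EC overlapped. ESC exceeded WT_EC by 0.72 (SE 0.13, 1.65-fold, adjusted p = 0.000993), null_EC by 0.69 (adjusted p = 0.00127) and null_EB by 0.50 (adjusted p = 0.00978). Between null_EC and WT_EC Klf2 differed by 0.033 (95% interval -0.26 to 0.33).

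Klf4 (chr4:55527137-55532475), the reprogramming factor, measured 8.85, 9.56 and 9.69 in WT_EC, 9.54, 9.20 and 9.59 in null_EC, 10.52, 10.33 and 10.27 in null_EB and 9.31, 9.29 and 9.37 in ESC. Each embryoid body array was above every other array, and the other groups overlapped. Klf4 rose in null_EB by 0.93 over null_EC (SE 0.19, 95% interval 0.51 to 1.35, 1.90-fold, adjusted p = 0.0190) and by 1.01 over WT_EC (2.01-fold, adjusted p = 0.00454, but 0.0683 with these 6 arrays alone). ESC was 2.07-fold below null_EB (SE 0.19 on the log2 scale, adjusted p = 0.000883). Between null_EC and WT_EC the difference was 0.079 (95% interval -0.34 to 0.50, adjusted p = 0.851), and between ESC and null_EC -0.12 (95% interval -0.54 to 0.30). The rise over null_EC missed the threshold when any 1 of the 6 arrays was left out (adjusted p of 0.0502 to 0.0936, with the difference at least 0.80), and without the WT_EC arrays it had an adjusted p of 1.35e-05. The closest centred profiles over 12 arrays were those of Mtm1, Abcc5 and Kif1b (root mean square differences of 0.166, 0.183 and 0.203).

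The 250 bases upstream of the RefSeq start (GRCm38.p6) of both genes are shown because the MEF2 route that drives them was measured too. Capitals mark CACCC on either strand, GGGCGG on either strand and the MEF2 site. The Klf2 window is on the plus strand at chr8:72318812-72319061, and the Klf4 window on the minus strand at chr4:55532476-55532725.
Klf2: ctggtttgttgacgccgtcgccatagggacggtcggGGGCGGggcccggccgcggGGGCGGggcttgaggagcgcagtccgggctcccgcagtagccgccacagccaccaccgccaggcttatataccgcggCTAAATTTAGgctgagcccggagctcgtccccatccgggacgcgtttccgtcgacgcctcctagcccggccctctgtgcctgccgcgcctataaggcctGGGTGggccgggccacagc
Klf4: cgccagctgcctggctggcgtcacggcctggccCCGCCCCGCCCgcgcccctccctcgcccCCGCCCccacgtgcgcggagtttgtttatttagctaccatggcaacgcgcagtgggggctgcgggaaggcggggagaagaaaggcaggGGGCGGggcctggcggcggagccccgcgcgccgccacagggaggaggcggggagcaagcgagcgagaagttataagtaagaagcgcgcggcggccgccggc
The Klf2 window held a MEF2 site starting at -118 from the start, as 0.508% of 32851 promoter windows of the same length did, with 1 CACCC and 2 GGGCGG. In the Klf4 window stood 4 GGGCGG (at least as many in 4.09% of windows), 1 pair of them overlapping, and no match to CACCC or to the MEF2 site. Over all windows 52.0% held CACCC and 32.7% GGGCGG.

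MEK5 and ERK5 (Mapk7) activate MEF2 factors upstream of Klf2 and Klf4, and the CCM proteins with their partner Heg1 hold that route back. Of 13 such genes, 2 rose and 1 fell from null_EC to null_EB, with a median difference of 0.12 against -0.0056 over all genes. Mapk7 measured 9.48, 9.59 and 9.59 in null_EB and 9.20, 9.17 and 9.19 in null_EC, with no overlap, and rose by 0.36 (adjusted p = 0.0241). Mef2d rose by 0.33 (adjusted p = 0.0389), and Heg1 fell by 0.80 (adjusted p = 0.0404). Between null_EC and WT_EC 2 were higher, Map3k2 and Mef2d, and Mef2c fell by 1.25, with 4 to 5 called without 1 WT_EC array. In null_EB against null_EC 3 were higher and 1 lower without the WT_EC arrays. In ESC against null_EB 0 were higher and 9 lower, with Heg1 at -2.09, Mef2a at -1.51 and Hdac7 at -1.30.

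For 11 endothelial genes known to be raised by KLF2 or KLF4 the median level was low against 8.01 over all gene values. It was 7.27 to 7.40 in null_EC and 7.27 to 7.45 in null_EB. From null_EC to null_EB 0 of the 11 rose and 1 fell. The 1 that fell was Thbd (thrombomodulin, an anticoagulant receptor), at 9.69, 9.40 and 9.30 in null_EB against 12.01, 11.95 and 11.87 in null_EC (-2.48, adjusted p = 1.52e-05). Without the WT_EC arrays Ptgds fell too (by 0.34, adjusted p = 0.00781), and Cav1, the caveolar coat protein, rose by 0.34 (adjusted p = 0.0355). Nos3, endothelial nitric oxide synthase, ran from 7.91 to 7.96 in null_EB and from 7.91 to 7.95 in null_EC. Against WT_EC, where Thbd was 10.97, 10.54 and 10.35, null_EC had 2 of these genes higher and 1 lower, with 2 to 7 called without 1 WT_EC array. Of 7 genes known to be lowered by KLF2 or KLF4, 4 fell in null_EC against WT_EC. Icam1 fell by 2.11, Ccl2 by 1.72, F3 by 1.53 and Vcam1 by 0.74. Neither Klf2 nor Klf4 was called in that comparison, and their part in the genes of both lists was not tested. Without 1 WT_EC array 3 to 6 of these 7 were called, and F3 had an adjusted p of 0.0528 without WT_EC 3. From null_EC to null_EB 1 of the 7 rose, Vcam1, an adhesion molecule, by 2.30-fold (adjusted p = 0.000684), and 0 fell. Without the WT_EC arrays 2 rose, Vcam1 and F3, and 2 fell, Icam1 and Edn1. Edn1, the vasoconstrictor endothelin-1, measured 9.21, 8.83 and 8.69 in null_EB and 10.79, 10.72 and 10.67 in null_EC, with no overlap, and fell by 1.82 in that fit (adjusted p = 8.04e-08).

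Of the Klf genes, Klf5 rose most in ESC. Klf5 (chr14:99298691-99313412), which supports self-renewal of embryonic stem cells, measured 9.25, 8.87 and 9.31 in WT_EC, 9.24, 9.16 and 9.27 in null_EC, 8.95, 8.84 and 8.80 in null_EB and 10.77, 10.62 and 10.83 in ESC. Every ESC array lay more than 1 log2 unit above every other array. Klf5 was higher in ESC than in null_EB by 1.87 (SE 0.11, 3.67-fold, adjusted p = 1.90e-07), than in null_EC by 1.51 (2.86-fold, adjusted p = 8.52e-07) and than in WT_EC by 1.60 (3.02-fold, adjusted p = 6.96e-07). Between null_EB and null_EC the difference was -0.36 (adjusted p = 0.102), and it passed the threshold without the WT_EC arrays (adjusted p = 0.00196). The closest profiles were those of Mphosph6, Dmrt1 and Dnajc21 (root mean square differences of 0.112, 0.131 and 0.132).

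The partners of Klf2, Klf4 and Klf5 in the naive pluripotency network were high in ESC. Of 19 genes, 16 were higher and 1 lower in ESC than in null_EB, with Pou5f1 at 5.92, Nanog at 5.86, Fbxo15 at 5.22 and Sox2 at 4.77. Nanog measured 12.54, 12.60 and 12.60 in ESC, 6.65, 6.77 and 6.74 in null_EB and 7.06, 6.98 and 6.93 in null_EC. In null_EB 0 rose over null_EC and Stat3 fell by 0.26 (adjusted p = 0.0456). In the fit without the WT_EC arrays 0 rose and 5 fell, Nanog by 0.26 and Tfcp2l1 by 0.52 among them. Nanog lay below 8.01, the median over all gene values, in both null_EC and null_EB. Tfcp2l1, a factor of the same network, was the gene of the list called in null_EC against WT_EC, at 9.94, 9.70 and 9.82 against 7.45, 8.23 and 8.45 (difference 1.78, adjusted p = 0.000291), and it was called without any 1 WT_EC array, with 1 to 3 of the list. Of 7 ubiquitin ligases known to act on KLF proteins, 0 rose and 0 fell from null_EC to null_EB with all arrays in the fit, while without the WT_EC arrays 2 rose, Smurf1 by 0.41 and Fbxw7 by 0.37, and 0 fell. Against WT_EC 0 were called in null_EC, and 0 to 1 without 1 WT_EC array. In ESC against null_EB Fbxo22 and Btrc were higher and Fbxo32 lower, and without the WT_EC arrays 2 were higher and 3 lower.

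Klf10 separated all groups. Klf10 (chr15:38291464-38300711), an early target of TGF-beta, measured 10.06, 9.90 and 9.65 in WT_EC, 9.58, 9.50 and 9.44 in null_EC, 9.15, 8.96 and 9.03 in null_EB and 10.51, 10.52 and 10.39 in ESC, and no group overlapped another. It fell from WT_EC to null_EC by 0.36 (SE 0.10, adjusted p = 0.0424) and from null_EC to null_EB by 0.46 (SE 0.10, adjusted p = 0.0287). ESC exceeded null_EB by 1.43 (SE 0.10, 2.69-fold, adjusted p = 8.05e-07). The call between null_EC and WT_EC was lost under 7 of 14 alternatives, among them leaving out WT_EC 1 (-0.27, adjusted p = 0.0793), and without the array labelled WT_EC 2 the adjusted p was 0.0493. The call between null_EB and null_EC was lost under 6 of 15 and had an adjusted p of 0.000273 without the WT_EC arrays. The closest profiles were those of Agpat5, Sap30 and Hikeshi (root mean square differences of 0.118, 0.154 and 0.155).

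Of 16 genes of TGF-beta signalling and response, 1 rose and 4 fell from null_EC to null_EB, with a median difference of -0.21. Id2, an inhibitor of differentiation factors, measured 9.89, 9.35 and 9.33 in null_EB and 11.26, 11.25 and 11.24 in null_EC and fell by 1.73 (adjusted p = 0.0129). The inhibitory Smad7 fell by 1.15 (adjusted p = 0.0470), Id1 and Skil fell too, and Tgif1 rose by 0.88 (adjusted p = 0.0494). Without the WT_EC arrays 5 rose, among them Tgfb1 by 0.48 and the receptor Tgfbr1 by 0.30, and 7 fell. In null_EC against WT_EC 2 rose, Skil and Smad2, and the matricellular gene Ccn2 fell by 1.57 (adjusted p = 0.00329), with 3 to 7 called without 1 WT_EC array, these 3 each time. Against null_EB, ESC had 3 of the list higher and 8 lower, with Tgfbr2 at -2.10.

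Klf3, a repressor that recruits CtBP, was lowest in ESC. Klf3 (chr5:64803521-64832901) measured 10.12, 10.97 and 10.68 in WT_EC, 10.77, 10.77 and 10.83 in null_EC, 10.99, 11.02 and 11.03 in null_EB and 10.14, 10.11 and 9.83 in ESC. Among the other arrays WT_EC 1 alone reached down to the ESC arrays. ESC was 1.98-fold below null_EB (SE 0.17 on the log2 scale, adjusted p = 0.000710), 1.70-fold below null_EC (adjusted p = 0.00360, 0.0532 with the arrays shifted to equal housekeeping medians) and 1.48-fold below WT_EC (adjusted p = 0.0204). The last was lost under 5 of 14 alternatives, among them leaving out the array labelled WT_EC 2 (-0.37) or WT_EC 3 (adjusted p = 0.0519).

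The Klf3 window (plus strand, chr5:64803271-64803520, capitals as above) is shown because, of the 8 windows found, it held the most CACCC and GGGCGG, the kinds of site Klf and Sp proteins bind.
Klf3: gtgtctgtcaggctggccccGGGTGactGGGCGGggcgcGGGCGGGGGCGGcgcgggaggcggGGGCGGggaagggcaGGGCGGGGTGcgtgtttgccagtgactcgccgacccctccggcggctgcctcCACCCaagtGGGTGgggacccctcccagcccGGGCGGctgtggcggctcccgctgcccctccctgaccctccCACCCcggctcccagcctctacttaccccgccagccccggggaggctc
It held 5 CACCC, a number that 0.667% of all windows reached, and 6 GGGCGG, a number that 0.886% reached. The GGGCGG starting at -172 overlapped the CACCC match starting at -167. CACCC stood in 6 of the 8 windows.

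The cofactors of KLF proteins and the rest of the family were counted beside shares of all genes called of 44.8% in ESC against null_EB and 5.4% from null_EC to null_EB. Of 14 corepressors and coactivators, 7 were higher and 4 lower in ESC than in null_EB, with Sap30 at 1.59, Ctbp2 at 1.23, Hdac1 at 0.99 and Sin3a at 0.90. Ctbp2, a partner of Klf3, measured 11.21, 11.21 and 11.21 in ESC and 9.96, 9.96 and 10.03 in null_EB. In null_EB 2 rose over null_EC, Kat2a by 0.40 and Sin3a by 0.30, and without the WT_EC arrays 5 were higher and 2 lower. In null_EC against WT_EC Sap30 fell by 0.48, with an adjusted p of 0.0795 without WT_EC 1 and 0.0579 without the array labelled WT_EC 2 (1 to 3 of the list were called without 1 WT_EC array). Of 15 other Klf and Sp genes, limma called 0 in each comparison without ESC and 0 to 2 in null_EC against WT_EC without 1 WT_EC array, while without the WT_EC arrays 3 were higher and 3 lower in null_EB than in null_EC. In ESC against null_EB 4 were higher, and 7 higher and 1 lower without the WT_EC arrays. Klf8 measured 8.83, 9.02 and 8.86 in ESC and 5.83 to 6.26 on the other 9 arrays, a difference of 2.87 from null_EB (7.29-fold, adjusted p = 4.41e-09).

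Klf6 and Klf7, closely related activators, were highest in WT_EC. Klf6 (chr13:5861489-5870393), known from injury responses, measured 10.58, 11.05 and 11.67 in WT_EC, 10.47, 10.44 and 10.40 in null_EC, 10.62, 10.54 and 10.42 in null_EB and 9.95, 9.76 and 10.03 in ESC. WT_EC and null_EC did not overlap, yet the difference of -0.67 (SE 0.21, 95% interval -1.13 to -0.21) missed the threshold (adjusted p = 0.0606). It was -0.69 without the array labelled WT_EC 2 (adjusted p = 0.0546) and -0.93 without WT_EC 1 (adjusted p = 0.00219). ESC was 2.28-fold below WT_EC (adjusted p = 0.000695) and 1.53-fold below null_EB (adjusted p = 0.0325), the latter lost under 7 of 15 alternatives. The closest profiles were those of Kcnt2, Prickle2 and Per1 (root mean square differences of 0.127, 0.144 and 0.146).

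Klf7 (chr1:64029448-64122345), known from neurons and fat, measured 10.24, 10.50 and 10.94 in WT_EC, 9.85 to 10.04 in null_EC, 10.08, 9.91 and 9.99 in null_EB and 10.16, 10.14 and 10.16 in ESC. Every WT_EC array was above all others. Klf7 fell from WT_EC to null_EC by 0.60 (SE 0.14, 1.51-fold, adjusted p = 0.0200) and was 1.48-fold lower in null_EB than in WT_EC (adjusted p = 0.0199). The first difference was -0.63 without the array labelled WT_EC 2 (adjusted p = 0.0160) and -0.41 without WT_EC 3 (adjusted p = 0.0174), and the call was lost without null_EC 1 or 3 (adjusted p = 0.0628 and 0.0859) and with the 6 arrays alone (adjusted p = 0.175). The second was lost under 3 of 14 alternatives, without null_EB 2 or 3 (adjusted p = 0.0811 and 0.0642) and with the 6 arrays alone (adjusted p = 0.159). ESC was 1.33-fold below WT_EC (adjusted p = 0.0371), which was lost under 7 of 14 alternatives, among them leaving out WT_EC 3 (-0.22, adjusted p = 0.0870).

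Immediate early genes respond within minutes to stress and growth factors, and several Klf genes are known to respond in this way. Of 27 immediate early genes outside the family, 0 rose and 9 fell in null_EC against WT_EC, with a median difference of -0.74 against 0.032 over all genes. Egr2 measured 9.80, 8.40 and 11.01 in WT_EC and 7.44, 7.59 and 7.39 in null_EC and fell by 2.26 (adjusted p = 0.00907). Of the list, 18 fell without the array labelled WT_EC 2, and 9 fell without WT_EC 1 and 9 without WT_EC 3. All genes called in that comparison also rose without the array labelled WT_EC 2, from 2615 to 5435 of 19938. The median level of the list was 9.67, 9.14 and 10.68 on WT_EC arrays 1 to 3, highest on WT_EC 3. In null_EC it was 9.07 to 9.14. Among the WT_EC arrays Klf4, Klf5, Klf6, Klf7 and Klf13 were also highest on WT_EC 3. Klf2 and Klf10 were lowest there, and Klf3, Klf9 and Klf15 were highest on WT_EC 2. The part of an immediate early response in the Klf values was not tested. Between null_EC and null_EB 3 rose, Myc by 0.75, Atf3 by 0.69 and Ier5, and Csrnp1 fell by 0.95. There 8 rose and 7 fell without the WT_EC arrays. Myc, the gene named in the study's title, measured 10.98, 10.79 and 10.83 in null_EB, 10.18, 10.02 and 10.14 in null_EC and 8.43, 8.64 and 8.53 in ESC.

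**Figure D3:**
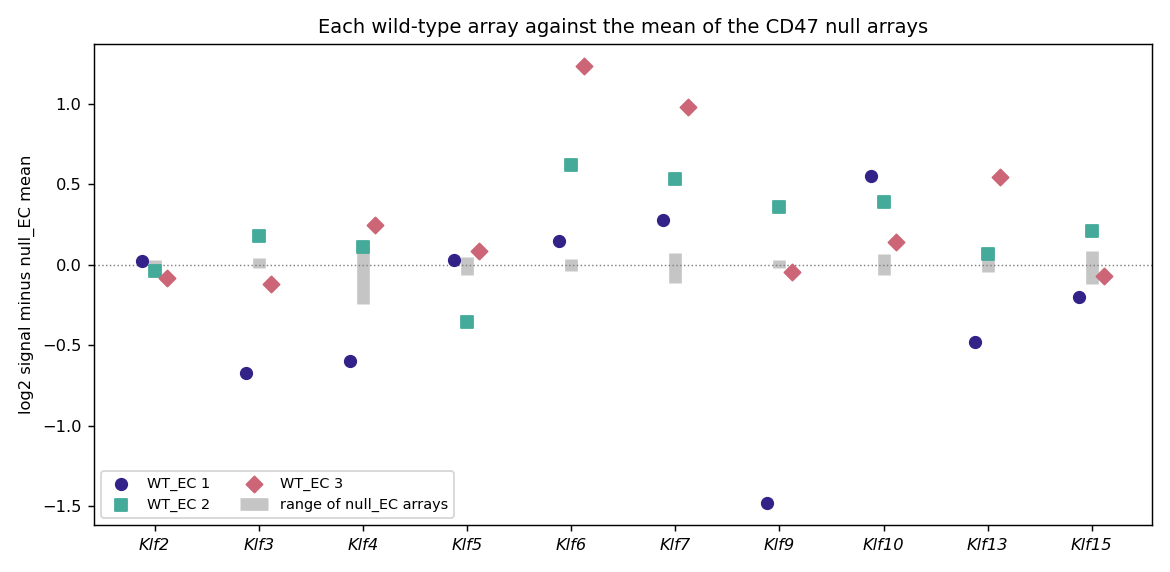
Log2 signal of each WT_EC array minus the null_EC mean (y axis) for the 10 Klf genes (x axis), with the range of the 3 null_EC arrays as grey bars. Klf6, Klf7 and Klf10 lie above the null_EC range on all 3 WT_EC arrays, and Klf9 lies far below it on WT_EC 1.

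The spread of the WT_EC arrays entered the error of all comparisons. The SD over 3 arrays was larger in WT_EC than in null_EC for 10 of 10 Klf genes, with a median of 0.393 against 0.0606, where all genes had medians of 0.213 and 0.0652. WT_EC 1 was the lowest of the 3 for 7 of the 10 Klf genes (32.2% of all genes) and WT_EC 3 the highest for 5 (26.5% of all genes). Without the array labelled WT_EC 2, Klf3 and Klf5 also passed the threshold in null_EB against WT_EC (0.61, adjusted p = 0.00873, and -0.42, adjusted p = 0.00328). Klf4 there was 1.10 (adjusted p = 0.00238), Klf7 -0.60 (adjusted p = 0.0173) and Klf10 -0.81 (adjusted p = 0.000491). All genes called in that comparison rose from 3697 to 6496 of 19938 without the array labelled WT_EC 2. In ESC against WT_EC Klf3 lost its call without that array, and Klf2, Klf5, Klf6, Klf7, Klf10 and Klf15 kept theirs, with adjusted p of 2.12e-07 for Klf5 to 0.0405 for Klf7. Without WT_EC 1, Klf6, Klf9 and Klf13 also passed the threshold in null_EB against WT_EC (-0.83, -1.24 and -0.58). Klf9 and Klf13 did so in ESC against WT_EC (-1.16 and -0.67). The counts of all genes called without WT_EC 1 are not given here, so these gains cannot be set against them.

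Klf9 had the widest spread in WT_EC. Klf9 (chr19:23141226-23168129), which glucocorticoid and thyroid hormone induce, measured 10.23, 12.07 and 11.67 in WT_EC, 11.70, 11.69 and 11.74 in null_EC, 10.61, 10.64 and 10.64 in null_EB and 10.73, 10.76 and 10.63 in ESC. The null_EC arrays lay above all null_EB and ESC arrays, and the WT_EC arrays fell on both sides of null_EC. The difference between null_EB and null_EC was -1.08 (SE 0.35, 2.12-fold, adjusted p = 0.110), and without the WT_EC arrays it had an SE of 0.0575 and an adjusted p of 3.62e-08. ESC was 2.01-fold below null_EC (adjusted p = 0.0331). Leaving out any 1 array of ESC or null_EC took that call away (adjusted p of 0.0699 to 0.0850), and without the WT_EC arrays it was 3.02e-09. Between null_EC and WT_EC the difference was 0.39 with all arrays, 0.76 without the array labelled WT_EC 2 and -0.15 without WT_EC 1. The closest profiles were those of Cstad, Fads2 and Fam13c (root mean square differences of 0.202, 0.242 and 0.246).

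The Klf9 window (plus strand, chr19:23140976-23141225, capitals as above) is shown because Klf9 had the largest difference between null_EB and null_EC among the Klf genes.
Klf9: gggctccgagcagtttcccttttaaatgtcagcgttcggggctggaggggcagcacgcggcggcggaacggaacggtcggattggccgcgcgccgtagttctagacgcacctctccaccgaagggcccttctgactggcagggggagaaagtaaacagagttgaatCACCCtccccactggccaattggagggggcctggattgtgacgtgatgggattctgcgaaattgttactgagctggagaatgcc
It held 1 CACCC, 3 CCAAT (at least as many in 2.79% of windows) and a TTCNNNGAA match starting at -33 from the start (7.02% of windows). The palindromic glucocorticoid response element was searched by its full letters and had no match in this window. Only 3 of 32851 windows held it, so its absence here says little.

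Of 17 glucocorticoid and clock genes, 2 rose and 0 fell from null_EC to null_EB, Nr1d1 by 0.74 and Nr1d2 by 0.55, and 6 rose and 4 fell without the WT_EC arrays. The 4 that fell in that fit were Fkbp5, Tsc22d3, Sgk1 and Zbtb16. Dusp1 (-0.17, adjusted p = 0.179) and Per1 (-0.033, adjusted p = 0.778) were not called in it, and Nr3c1, the glucocorticoid receptor, was higher (0.30, adjusted p = 0.0141). Zbtb16 measured 10.44, 10.42 and 10.19 in null_EC and 8.95, 9.08 and 9.01 in null_EB. On WT_EC arrays 1 to 3 Tsc22d3 was 7.95, 10.19 and 9.45 and Fkbp5 10.21, 11.39 and 11.62, lowest on WT_EC 1 like Klf9. Dusp1, another target, was 11.48, 10.25 and 13.05 there and did not share that order. The part of hormone in the medium was not tested. Between null_EC and WT_EC 2 rose and 2 fell (5 to 10 called without 1 WT_EC array), and in ESC against null_EB 2 were higher and 10 lower.

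**Figure D4:**
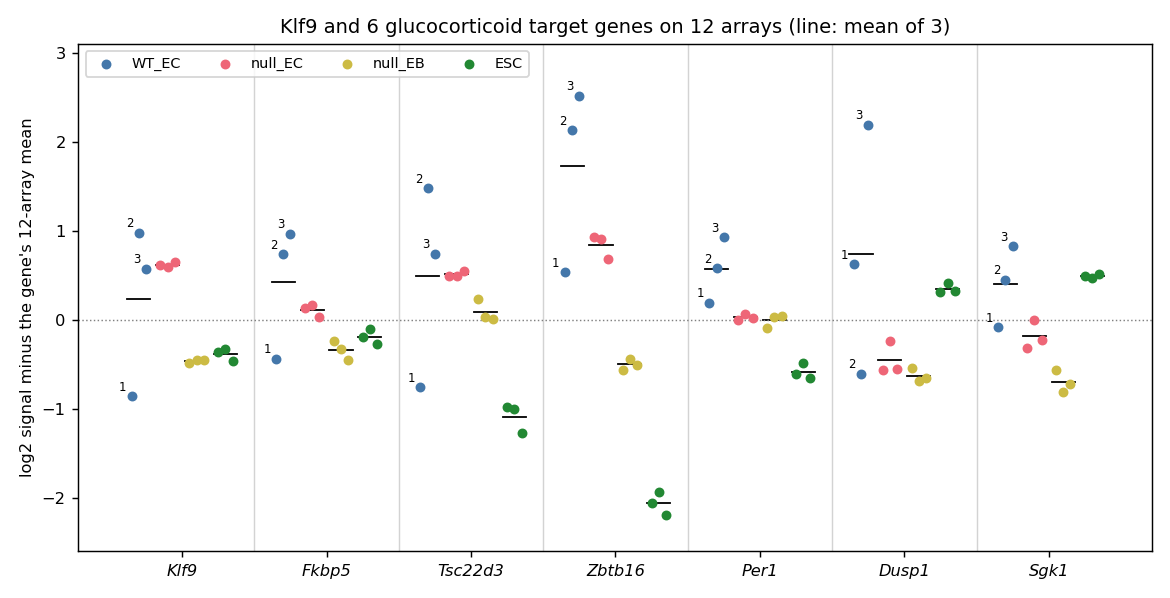
Log2 signal minus the gene's own mean over 12 arrays (y axis) for Klf9 and 6 glucocorticoid targets of the list (x axis), by group, with lines for means of 3 arrays and numbers for the WT_EC arrays. WT_EC 1 is the lowest WT_EC array for Klf9, Fkbp5, Tsc22d3, Zbtb16, Per1 and Sgk1 but not for Dusp1.

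Klf13 and Klf15 had the narrowest spans. Klf13 (chr7:63886351-63938915), which recruits Sin3A as Klf9 does, measured 8.81, 9.36 and 9.83 in WT_EC, 9.36, 9.26 and 9.24 in null_EC, 9.02, 8.99 and 9.04 in null_EB and 8.87, 8.98 and 8.93 in ESC. The null_EC arrays lay above all null_EB and ESC arrays, and WT_EC overlapped all groups. Limma called it in 0 of 6 comparisons, with a lowest unadjusted p of 0.0582, and without the WT_EC arrays it was lower in null_EB than in null_EC (-0.27, adjusted p = 0.00397). Within the family Klf7 and Klf13 had the closest profiles (root mean square difference of 0.244).

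Klf15 (chr6:90461043-90491803), which glucocorticoid induces and which controls amino acid and glucose metabolism, measured 8.52, 8.93 and 8.65 in WT_EC, 8.76, 8.60 and 8.80 in null_EC, 8.43, 8.66 and 8.59 in null_EB and 8.08, 8.34 and 8.02 in ESC. All ESC arrays were below all others. ESC was 1.49-fold below null_EC (SE 0.12 on the log2 scale, adjusted p = 0.00246), 1.46-fold below WT_EC (adjusted p = 0.00328) and 1.33-fold below null_EB (adjusted p = 0.0169). The last was lost under 5 of 15 alternatives, among them leaving out null_EB 2 (adjusted p = 0.0681) or 3 (0.0530) or ESC 1 (0.0594) or 3 (0.0696). All of these were lost when the arrays were shifted to equal housekeeping medians (adjusted p of 0.113, 0.0735 and 0.195).

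Of 11 metabolic and adipogenic genes linked to KLF proteins, 1 rose and 0 fell from null_EC to null_EB. Ppargc1a, a coactivator of mitochondrial genes, measured 8.02, 7.94 and 7.96 in null_EB and 7.46, 7.06 and 7.26 in null_EC and rose by 0.72 (adjusted p = 0.0186). Without the WT_EC arrays 4 rose, Ppargc1a, Pparg, Cebpa and Aldh4a1, and 2 fell, Cebpd and Fabp4, the latter by 0.94. In null_EC against WT_EC 1 rose and 3 fell, with the fatty acid carrier Fabp4 at -2.38, and 2 to 5 were called without 1 WT_EC array. ESC had 2 higher and 4 lower than null_EB, with Pparg at -2.64.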

How the data were processed

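RNA of 12 samples was hybridised to 12 arrays from 300 ng each, per the labels' protocols. The authors deposited log2 signals per probe set, made with Affymetrix Expression Console 1.2.1 by RMA, per the submitters' processing notes. A human array is named in the protocol, but the identifiers belong to the mouse platform. Of 35556 probe sets, 21789 had 1 gene, and the brightest per gene by mean over all arrays left 19938 genes. The number of arrays limits the precision.

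limma 3.58.1 (R 4.3.3) took group means over the 12 arrays together, with Benjamini-Hochberg adjustment over all genes in each of 6 comparisons. The fit was tested on simulated data in which each gene had the same spread in all groups. In the arrays the median SD over all genes was 0.213 in WT_EC and 0.0652 to 0.0847 in the other groups. The simulation therefore does not cover this unequal spread. The 10 genes and the gene lists were chosen with earlier results of these data known. Each Klf gene is described in full. Of each list at most 4 called genes per comparison are given with values, those with the largest difference, and further genes of a list were named after their values were seen. For Klf genes spanning at least 1 log2 unit the 3 genes with the smallest root mean square difference of centred values are named. Lists are given as counts and medians, with no set test. Same-numbered arrays correlated at -0.256 to 0.225 after removal of group means, so the numbers were not taken to pair samples. Alternatives left out each array, all WT_EC arrays or the other groups, or changed the scaling, weights or test.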

Additional observations from a re-analysis of the deposited data

How the results depend on the processing

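Of the 27 calls among Klf genes, 13 held under every alternative run, 14 were lost under some and 0 changed sign. Klf genes called in null_EC against WT_EC (2) became 0 when the fit held these 6 arrays only, 1 with robust limma-trend and 0 to 2 without 1 array. From null_EC to null_EB (2) they became 1 with the housekeeping shift, 7 when the fit held these 6 arrays only, 5 without the WT_EC arrays, 6 under array weights and 0 to 1 without 1 array. In null_EB against WT_EC (3) they became 1 with these 6 arrays only, 6 under array weights and 2 to 6 without 1 array, and in ESC against WT_EC (7) 4 with the housekeeping shift, which moved an array by up to 0.170. All genes called in null_EC against WT_EC (2615) became 588 with 6 arrays only and 1335 to 5435 without 1 array, the most without WT_EC 2. From null_EC to null_EB (1077) they became 5464 with 6 arrays only, 5058 without the WT_EC arrays, 8001 under array weights and 390 to 676 without 1 array. In null_EB against WT_EC (3697) they became 870 with 6 arrays only and 2026 to 6496 without 1 array, in ESC against WT_EC (9394) 6250 with 6 arrays only, and in ESC against null_EB (8929) 14866 under array weights. The cause was not tested. A count of Klf genes or list genes without a count of all genes under the same setting beside it cannot be set against a background.

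The sign turned for differences that were not called. In null_EC against WT_EC the housekeeping shift gave -0.037 for Klf2 and -0.048 for Klf15, and array weights gave -0.077 for Klf4. Without 1 array that comparison ran from -0.031 to 0.39 for Klf3, -0.18 to 0.24 for Klf4, -0.056 to 0.16 for Klf5, -0.15 to 0.76 for Klf9, -0.31 to 0.20 for Klf13 and -0.068 to 0.13 for Klf15. From null_EC to null_EB Klf7 was -0.015 under array weights and -0.027 to 0.070 without 1 array. In ESC against WT_EC Klf4 was 0.14 with the housekeeping shift and -0.30 to 0.12 without 1 array, in ESC against null_EC Klf4 was 0.13 with that shift, and in ESC against null_EB Klf13 was 0.058 with it.

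With the replicate number as a block, although the numbers share no more than a name, 2 Klf genes were called between null_EC and WT_EC. There were 2 between null_EB and null_EC and 3 between null_EB and WT_EC. For ESC there were 6 against WT_EC, 6 against null_EC and 7 against null_EB. Counts of all genes under this block are not given here, so these Klf counts cannot be set against a background.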
